A study of Mus musculus with 11 samples.

Results

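The 9 genes described here were the hormone receptors Pgr and Esr1 and the luminal lineage factors Foxa1, Gata3, Elf5, Tfap2a, Tfap2b, Tfap2c and Cited1. They were found by their symbols among the 21846 mouse genes of the count table, and all 9 were present. They were selected on their levels in these same libraries, so the differences between the 4 groups compared here are a description and carry no test.

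RNA was sequenced from 11 samples of the mouse MamBo lines. A human HER2 transgene on the FVB background had given rise to the mammary tumors behind these lines. The 5 HER2-positive libraries came from MamBo89 (HER2 stable, n = 4) and untreated MamBo43 (HER2 labile, n = 1). The 6 HER2-negative libraries came from MamBo38 (HER2 loss, n = 4) and from trastuzumab-treated MamBo43 that had mostly lost HER2 (MamBo43 TRT, n = 2). In the treated MamBo43 culture, the study still detected a small share of HER2-positive cells and islets of polygonal cells, so it was mixed. Trastuzumab, an antibody against HER2, was given at 30 µg/ml either for 60 days or for 30 days followed by 30 days without it, with 1 library per schedule in each line. MamBo89 and MamBo38 also had 2 untreated libraries each. One untreated MamBo89 library is named AG3 and was taken as the clone that the methods list, since the other MamBo89 libraries were accounted for. MamBo89 derives from tumor A, and MamBo43 and MamBo38 derive from tumor B, the latter from a tumor that grew after injection of MamBo43. Each line thus stands for 1 tumor, and every library shares the transgene. HER2 status was taken from the study's description and was not checked on the mouse genes.

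Levels are given as CPM, which are counts scaled to a common library size with TMM factors. Total counts ranged from 17040454 to 27127662 per library, and a floor of 3 counts in a library corresponded to 0.114 to 0.179 CPM. The summed level of 7 luminal epithelial markers (Epcam, Krt8, Krt18, Krt19, Cdh1, Cldn3 and Cldn4) was 2472 to 3890 CPM in MamBo89, 3369 in MamBo43, 292 and 1799.8 in MamBo43 TRT and 1.35 to 2.56 in MamBo38. The sum of 7 fibroblast markers ran the other way, at 36.1 to 96.9 CPM in MamBo89 and 334 in MamBo43. It reached 6952 and 7453 CPM in MamBo43 TRT and 3805 to 4542 in MamBo38. In MamBo38, Col1a2 (2446 to 3057 CPM) and Pdgfra (814 to 999.9 CPM) made up most of it. Thy1 was at most 0.0556 CPM in MamBo38, under the 2.15 CPM of MamBo43, and Lum was at 0 in every library. The 8 basal or myoepithelial markers summed to 12.6 to 50.4 CPM in MamBo89, 27.3 in MamBo43 and 8.54 to 27.4 in MamBo38, but to 114 and 626 in MamBo43 TRT, where Acta2 (69.1 and 467 CPM) and Krt14 (9.90 and 111 CPM) made up most of the sum. Immune markers (4 genes) held at most 3 counts in any library, and the 4 endothelial markers summed to at most 0.890 CPM. The luminal markers of MamBo38 thus stood near 0, and 3 of these 7 genes were at or under the floor in all of its libraries.

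In the mammary gland, hormone-sensing luminal cells carry the estrogen receptor, whose target genes include the progesterone receptor. FOXA1 opens chromatin for the estrogen receptor, and GATA3 maintains the luminal fate. Alveolar progenitors, which do not sense hormones, depend on ELF5. The AP-2 factors encoded by Tfap2a, Tfap2b and Tfap2c bind GC-rich palindromes and act in luminal differentiation, and CITED1 is a coactivator of the estrogen receptor without DNA-binding activity of its own. Of the other nuclear receptors, Esr2, the second estrogen receptor, held 3 counts in all 11 libraries together.

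The promoters of 6 of the 9 genes are shown because their levels separated the lines most clearly or because they hold letters that the other members' proteins can bind. RefSeq gave start sites for 8 of the 9 genes on GRCm38.p6, and each window covers 250 bases before and 50 bases after the start, printed 5′ to 3′ on the strand of the gene. Capitals mark matches, on either strand, to 6 motifs, none of which overlapped another in the windows shown. The letters AGGTCA are a single arm of an estrogen response element. The letters AGAACA are a single arm of a progesterone response element. Zinc-finger factors of the family of Gata3 recognise AGATAA. Forkhead factors such as FOXA1 recognise TGTTTAC, and AP-2 factors recognise the palindrome GCCNNNGGC. The basal promoter element searched was TATAAA. The windows were chr9:8899583-8899882 for Pgr, chr1:19211804-19212103 for Tfap2b, chr2:103411848-103412147 for the first of 2 Elf5 start sites, chr12:57546062-57546361 on the minus strand for Foxa1, chr2:9878551-9878850 on the minus strand for Gata3 and chrX:102250727-102251026 on the minus strand for the third of 3 Cited1 start sites.
Pgr: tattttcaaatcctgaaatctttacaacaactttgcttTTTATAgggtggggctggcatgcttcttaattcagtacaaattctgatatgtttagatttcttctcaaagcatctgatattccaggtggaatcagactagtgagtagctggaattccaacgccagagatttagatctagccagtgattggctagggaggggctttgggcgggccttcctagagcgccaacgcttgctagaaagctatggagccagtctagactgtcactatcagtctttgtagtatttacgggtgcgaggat
Tfap2b: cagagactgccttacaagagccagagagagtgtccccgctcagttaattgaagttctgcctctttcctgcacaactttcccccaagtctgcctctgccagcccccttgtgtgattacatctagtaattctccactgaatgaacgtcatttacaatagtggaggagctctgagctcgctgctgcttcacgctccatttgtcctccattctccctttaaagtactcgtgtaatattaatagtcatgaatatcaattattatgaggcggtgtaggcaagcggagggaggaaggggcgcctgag
Elf5: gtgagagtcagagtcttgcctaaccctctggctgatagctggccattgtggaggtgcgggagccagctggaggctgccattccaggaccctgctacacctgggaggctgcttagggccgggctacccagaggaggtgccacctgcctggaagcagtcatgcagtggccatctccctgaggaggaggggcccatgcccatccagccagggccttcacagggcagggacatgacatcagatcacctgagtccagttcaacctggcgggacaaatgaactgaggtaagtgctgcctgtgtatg
Foxa1: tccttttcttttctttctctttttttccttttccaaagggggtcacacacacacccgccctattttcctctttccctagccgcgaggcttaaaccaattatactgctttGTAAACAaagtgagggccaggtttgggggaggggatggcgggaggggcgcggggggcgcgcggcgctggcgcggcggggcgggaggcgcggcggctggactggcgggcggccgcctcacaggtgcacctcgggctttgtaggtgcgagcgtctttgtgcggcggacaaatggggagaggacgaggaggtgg
Gata3: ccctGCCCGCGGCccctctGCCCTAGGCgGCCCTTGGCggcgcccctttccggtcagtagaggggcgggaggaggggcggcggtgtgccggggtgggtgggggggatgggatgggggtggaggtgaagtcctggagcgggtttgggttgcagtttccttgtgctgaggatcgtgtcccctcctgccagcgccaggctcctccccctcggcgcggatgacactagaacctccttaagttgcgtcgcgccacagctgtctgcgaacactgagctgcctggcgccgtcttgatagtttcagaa
Cited1: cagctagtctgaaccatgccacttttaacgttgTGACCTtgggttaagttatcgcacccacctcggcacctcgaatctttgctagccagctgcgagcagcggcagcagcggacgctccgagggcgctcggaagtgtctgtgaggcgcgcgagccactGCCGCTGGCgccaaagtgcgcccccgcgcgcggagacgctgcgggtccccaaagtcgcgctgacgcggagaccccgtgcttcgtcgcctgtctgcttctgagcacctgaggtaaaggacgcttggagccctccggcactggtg

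The Pgr window held 1 match to the basal element 212 bases before the start and none of the other motifs, hormone response arms included. Tfap2b and the first Elf5 window held no match. Foxa1 held 1 forkhead match 141 bases before its start, a motif found in 3.66% of 32544 mouse promoter windows. Gata3 held 3 AP-2 matches between 246 and 221 bases before its start, the distal end of its window, and 16.7% of all windows held at least 1. The third Cited1 window held an AP-2 match 93 bases and an estrogen response arm 217 bases before the start, the latter present in 16.2% of all windows. That window held 32 CpG dinucleotides, above 90.4% of promoters, whereas the first Elf5 window held 3 and the Pgr window 6, with a median of 7. The first and second Cited1 windows held 18 and 14, the second Elf5 window 10, Foxa1 26, Gata3 22 and Tfap2b 8. A progesterone response arm occurs in 18.9% of windows, the Gata3 family motif in 11.2% and the basal element in 13.6%. These matches describe letters and not binding.

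Among the receptors, Pgr was highest in MamBo43. Untreated MamBo43 reached 27.3 CPM from 697 counts, whereas all 4 MamBo89 libraries held 0 counts. The MamBo43 TRT libraries held 1.08 CPM after the interrupted schedule and 0.959 CPM after 60 days. In MamBo38, 1 untreated library held 1 count, or 0.0480 CPM, and the other 3 held 0. Pgr was thus at least 175-fold higher in MamBo43 than in MamBo89, against the floor of 3 counts per library. The gene lies on chromosome 9 (8899833 to 8968611, plus strand, GRCm38), Esr1 on chromosome 10 (4611593 to 5005614), Foxa1 on 12 (57540628 to 57546916), Tfap2a on 13 (40715302 to 40738376), Tfap2b on 1 (19208914 to 19238576) and Cited1 on X (102247381 to 102252181). Gata3 (9857078 to 9890034), Elf5 (103411688 to 103450989) and Tfap2c (172549593 to 172558622) lie on chromosome 2.

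Esr1 was transcribed in every library, and its order over the lines differed from that of Pgr. MamBo43 was highest with 32.9 CPM. MamBo38 followed with 19.6 and 25.8 CPM untreated and 19.4 and 24.9 CPM treated, and MamBo43 TRT with 21.4 and 17.4 CPM. MamBo89 was lowest, with 8.18 CPM in AG3, 8.24 CPM in the parental library and 9.26 and 6.96 CPM after treatment. The mean was 4.03-fold higher in MamBo43 than in MamBo89 (counting interval 3.63 to 4.48), 2.75-fold higher in MamBo38 and 2.38-fold higher in MamBo43 TRT. MamBo38 and MamBo43 TRT overlapped, and no other pair of groups did. MamBo38, which held a single Pgr count, thus had more Esr1 than MamBo89, which held none. The Esr1 promoter site that RefSeq lists first held 1 AP-2 match 170 bases before its start.

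**Figure D1:**
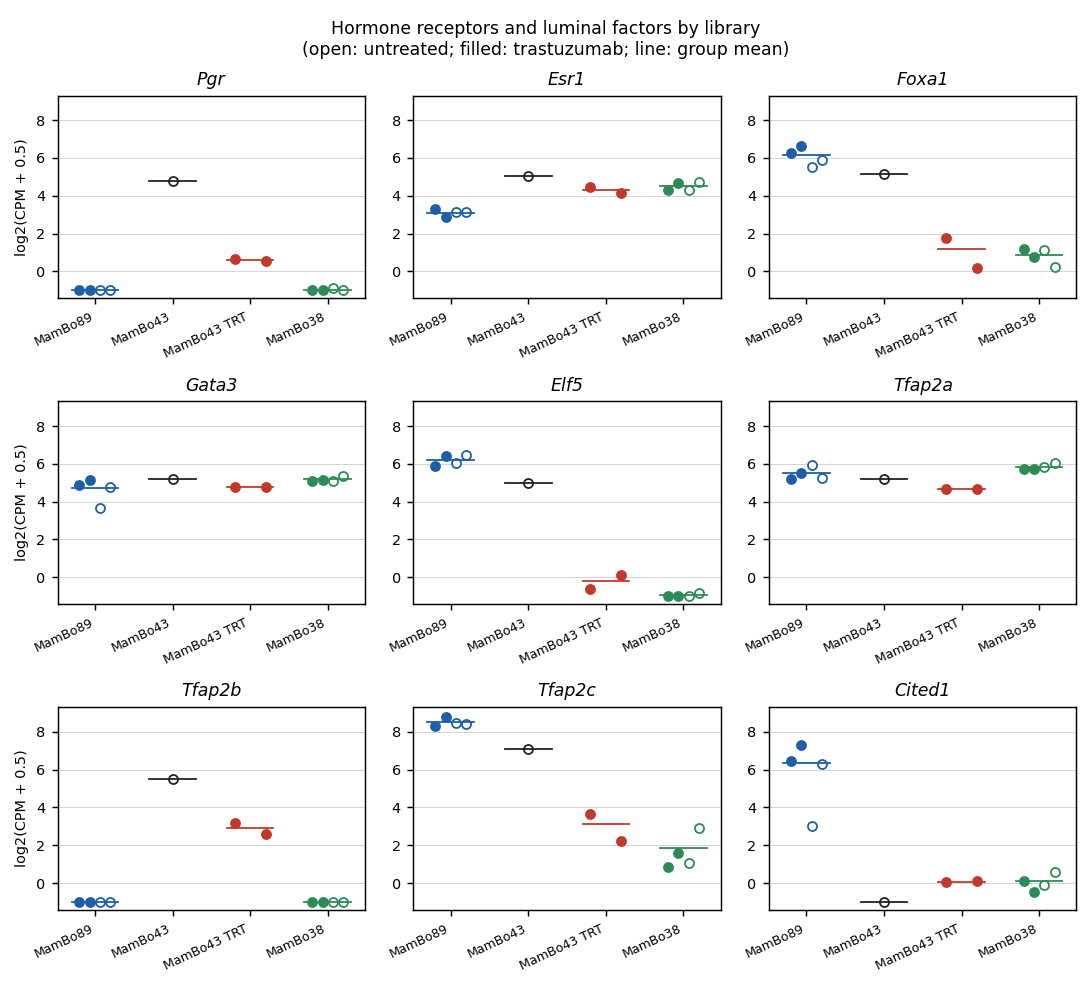
Level of each of the 9 genes in each library, as log2(CPM + 0.5) on the vertical axis, with the 4 groups along the horizontal axis. Open points are untreated libraries, filled points are trastuzumab-treated ones, and lines are group means. Pgr and Tfap2b peak in MamBo43, Foxa1, Elf5 and Tfap2c are high in MamBo89 and MamBo43 and low in the other groups, and Esr1, Gata3 and Tfap2a stay above 6 CPM in all 11 libraries.

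Among the luminal factors, Foxa1, Elf5 and Tfap2c were high in every HER2-positive library and low in every HER2-negative one. Foxa1 was 44.7 CPM in AG3, 58.2 CPM in parental MamBo89, and 76.6 and 100.4 CPM in treated MamBo89. It was 35.7 CPM in MamBo43, 2.89 and 0.652 CPM in MamBo43 TRT, and 0.667 to 1.79 CPM in MamBo38. Its mean was 42.3-fold lower in HER2-negative libraries (1.49 ± 0.844 CPM, SD, n = 6) than in HER2-positive ones (63.1 ± 25.9 CPM, n = 5). MamBo43 TRT and MamBo38 overlapped for Foxa1.

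Elf5 showed the widest range of the 3. It reached 64.8, 89.0, 57.6 and 83.3 CPM in the AG3, parental and treated MamBo89 libraries, and 31.4 CPM in MamBo43. In MamBo43 TRT, it was 0.147 CPM (3 counts) after the interrupted schedule and 0.575 CPM (15 counts) after 60 days. MamBo38 held 1 Elf5 count over its 4 libraries. The HER2-negative mean was 503-fold below the HER2-positive one, with a counting interval of 275 to 715. That fold rested on MamBo43 TRT after 60 days, without which it was 1609-fold (636 to 5982).

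Tfap2c was the most abundant member per length of exon in MamBo89 and in MamBo43. It was 357, 345, 321 and 448 CPM in the AG3, parental and treated MamBo89 libraries and 137 CPM in MamBo43. MamBo43 TRT held 12.2 CPM after the interrupted schedule and 4.22 CPM after 60 days. MamBo38 held 1.31 to 2.51 CPM in the 3 libraries whose names carry a code found in no other line, and 7.06 CPM in the untreated one with the code that all other lines carry. The Tfap2c mean was 66.7-fold lower in HER2-negative libraries, and MamBo38 and MamBo43 TRT overlapped.

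Cited1 was highest in MamBo89. Parental MamBo89 held 77.8 CPM, and its treated libraries held 86.3 and 155 CPM, but AG3 held 7.55 CPM. MamBo43 held 0 counts, and MamBo43 TRT and MamBo38 held 0.539 to 0.575 CPM and 0.228 to 1.001 CPM, respectively. The MamBo89 mean was at least 697-fold above MamBo43. Without AG3, the lowest MamBo89 library still exceeded every library of tumor B. In a comparison limited to tumor B, Cited1 was higher in HER2-negative than in HER2-positive libraries, the opposite of the comparison over both tumors, and rested on 0 counts in the single HER2-positive library.

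Gata3 and Tfap2a varied less between lines than the other luminal factors. Gata3 was 35.9 CPM in MamBo43, 27.2 and 27.1 CPM in MamBo43 TRT, and 33.5 to 40.2 CPM in MamBo38. In MamBo89, it was 11.98 CPM in AG3 and 26.8 to 35.4 CPM in the other 3 libraries, so that MamBo89 spanned the levels of MamBo43 TRT. Tfap2a was 61.3 CPM in AG3 and 36.1 to 45.4 CPM in the other MamBo89 libraries, 36.2 CPM in MamBo43, 25.2 and 24.5 CPM in MamBo43 TRT and 51.7 to 64.9 CPM in MamBo38. Tfap2a was 2.27-fold higher in MamBo38 than in MamBo43 TRT, without overlap. Of its 75-base windows, 7.80% also occur in antisense genes, and the library kit keeps no strand, so these reads cannot be told apart. The share was at most 0.630% for the other 8 genes.

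Tfap2b, like Pgr, was highest in MamBo43. MamBo43 held 45.3 CPM from 1158 counts, MamBo43 TRT held 8.62 and 5.64 CPM, and all 8 libraries of MamBo89 and MamBo38 held 0 counts. It was at least 291-fold higher in MamBo43 than in MamBo89 and at least 300.1-fold higher than in MamBo38. MamBo43 TRT was at least 47.2-fold above MamBo38. Pgr and Tfap2b correlated at r = 0.93 over the 11 libraries, and Foxa1, Elf5 and Tfap2c at r = 0.96 to 0.98. These values describe log2(CPM + 0.5) over libraries that share lines, and the genes were picked for their patterns.

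Called genes passed a Benjamini-Hochberg adjusted p under 0.1 in edgeR's quasi-likelihood test and differed by at least 1 on the log2 scale. Between HER2-negative and HER2-positive libraries, 7 of the 9 members had enough counts to be fitted. Of these, 4 were called lower (Elf5, Tfap2c, Foxa1 and Cited1) and 0 higher, against 17.0% and 15.8% of 12364 genes. All 4 calls were lost with counts summed per line and HER2 status, so they rest on libraries as replicates. The Cited1 call was also lost among untreated libraries only. For MamBo43 TRT against untreated MamBo43, 5 were called lower (Pgr, Tfap2b, Elf5, Tfap2c and Foxa1) and 0 higher, against 15.5% and 13.6% of 13782 genes. For MamBo43 against MamBo89, Esr1, Pgr and Tfap2b were called higher and Elf5 and Cited1 lower, against 11% and 7.86%. For MamBo38 against MamBo43 TRT, Tfap2a was called higher and Tfap2b, Pgr, Elf5 and Tfap2c lower, where 10.2% of genes were called in each direction. The Tfap2c call there was lost in 7 of 11 fits that left out 1 library and at an adjusted p under 0.05. Its log2 fold change was -0.46 without the interrupted MamBo43 TRT library and -0.21 with only the MamBo38 library of the shared code, both under the fold minimum. The Elf5 call was lost without MamBo43 TRT after 60 days and with only the MamBo38 library of the shared code (log2 fold change -2.63). The Elf5 call between MamBo43 and MamBo89 was lost in 2 of 10 fits that left out 1 library. It was also lost at an adjusted p under 0.05 and against untreated MamBo89 only. Pgr and Tfap2b entered the fit of the 4 groups only through libraries of the MamBo43 line, untreated or treated. Since these contrasts were among those that chose the members, the counts are descriptive.

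The level left in MamBo43 TRT was set against untreated MamBo43 for each schedule, with 1 library each. Pgr was at 3.95% of the untreated level after the interrupted schedule (95% counting interval 2.46 to 6.03) and at 3.52% after 60 days (2.26 to 5.23), and the intervals overlapped. Elf5 was at 0.468% (0.0963 to 1.37) and 1.83% (1.02 to 3.04). Foxa1 was at 8.10% (6.12 to 10.5) and 1.83% (1.06 to 2.94), and Tfap2c at 8.92% (7.81 to 10.1) and 3.07% (2.52 to 3.71). Tfap2b was at 19.0% (16.1 to 22.3) and 12.4% (10.4 to 14.8). For these 3, the library kept in trastuzumab was lower, and the intervals did not overlap. Esr1 kept 65.1% and 52.9%, Tfap2a 69.6% and 67.6% and Gata3 75.8% and 75.4%.

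The 7 epithelial genes set beside the members were chosen without a rule, so the comparison covers these 7 and not luminal or epithelial genes in general. All but Ehf kept a larger share than Foxa1 and Tfap2c in the interrupted library. Krt18 and Krt8, the keratins of simple epithelium, stood at 84.2% and 73.3% there and at 10.1% each after 60 days. Epcam kept 25.1% and 4.87%, Cdh1, which encodes E-cadherin, 26.0% and 9.31%, and Grhl2, an epithelial transcription factor, 24.0% and 8.34%. Elf3 kept 24.1% and 8.88%, whereas Ehf, another ETS factor, kept 5.71% and 3.53%. Elf5 was below all 7 in both libraries, while the counting intervals of Pgr overlapped those of Ehf in both libraries and that of Epcam after 60 days. In bulk RNA, fewer cells with a transcript and less transcript per cell cannot be told apart. The epithelial, fibroblast and basal marker sums moved with these levels, and their part in them was not tested.

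**Figure D2:**
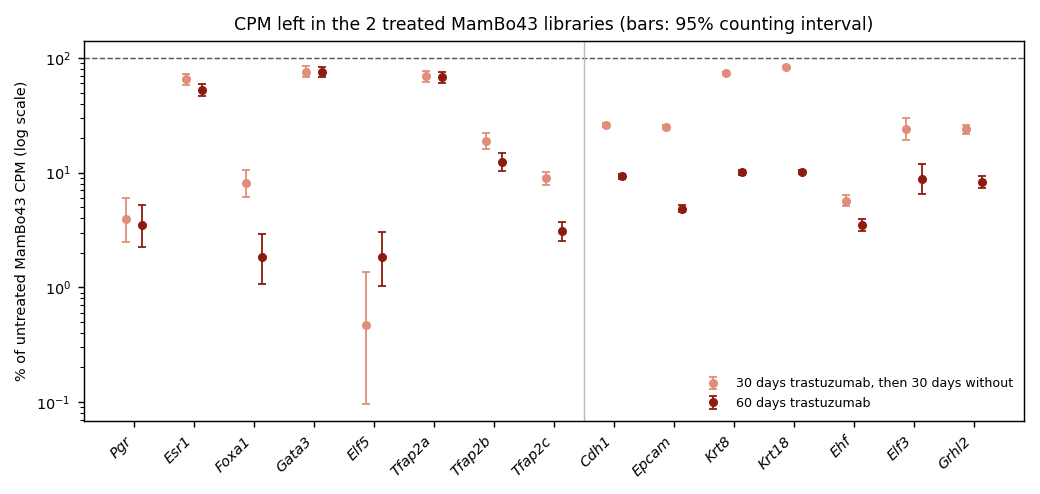
Level left in each MamBo43 TRT library as a percent of untreated MamBo43, on a log axis, for 8 members and, right of the line, 7 epithelial genes. Bars are 95% counting intervals and the dashed line is 100%. Esr1, Gata3 and Tfap2a stay between 52.9% and 75.8%, while Pgr, Elf5, Foxa1 and Tfap2c lie under 10% in both libraries. Cited1 had 0 counts in untreated MamBo43 and is left out.

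The AP-2 genes differed in which one was predominant. Per kilobase of exon, Tfap2c made up 88.6 to 92.9% of the summed level of the 3 genes in MamBo89 and 72.0% in MamBo43, where Tfap2a held 14.2% and Tfap2b 13.8%. In MamBo43 TRT, Tfap2a held the largest share, with 52.3% after the interrupted schedule and 71.1% after 60 days, and Tfap2c held 33.8% and 16.3%. In MamBo38, Tfap2a held 87.3 to 96.8%. The sum itself was 94.7 to 131 CPM per kilobase in MamBo89, 51.9 in MamBo43, 9.84 and 7.04 in MamBo43 TRT and 11.2 to 15.1 in MamBo38. Tfap2a, the one that predominated in the HER2-negative libraries, thus did so in a smaller pool. Tfap2d held no count, and Tfap2e held 8 counts in all.

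**Figure D3:**
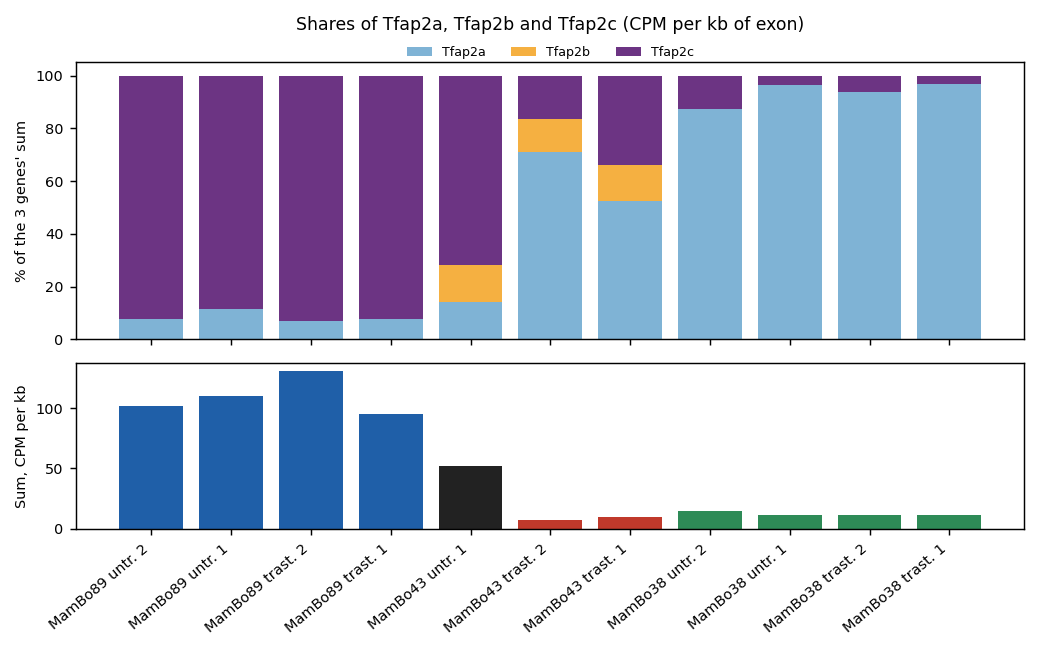
Upper panel, share of Tfap2a, Tfap2b and Tfap2c in their summed CPM per kilobase of exon, in percent, for each library. Lower panel, the sum itself in CPM per kilobase. Tfap2c holds most of the sum in MamBo89 and untreated MamBo43, and Tfap2a in MamBo43 TRT and MamBo38, where the sum is at most 15.1.

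On the same per-length scale, the ranking of the 9 genes changed from line to line. In MamBo89, Tfap2c led with a mean of 100.01 CPM per kilobase, followed by Cited1 with 46.6 and Foxa1 with 21.0, and Esr1 was at 0.597. In MamBo43, Tfap2c (37.3) was followed by Foxa1 (10.7) and Gata3 (9.03), with Pgr at 3.19 and Esr1 at 2.41. In MamBo43 TRT, Gata3 (6.83) and Tfap2a (5.07) led. In MamBo38, Tfap2a (11.5) and Gata3 (8.94) led, Esr1 followed with 1.64, and all other members were under 1.

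Trastuzumab in the lines that kept their HER2 status was a comparison that the choice of members did not use. In MamBo89, edgeR called 0 genes (0%) of 12046, with 186 at an unadjusted p under 0.05, and DESeq2 called 9. Foxa1 had a log2 fold change of 0.79 ± 0.26 (SE, 2 treated against 2 untreated libraries, edgeR adjusted p = 0.944), and both treated libraries were above both untreated ones. Cited1 stood at 1.52 ± 0.91 and Gata3 at 0.74 ± 0.41, with the same adjusted p and again with both treated libraries above. The share of all genes that separated in this way was not counted, so these separations are a description. Foxa1, Cited1 and Gata3 were lowest in AG3. Without AG3, their values were 0.62, 0.66 and 0.28, with an adjusted p of 1 each. Esr1 (-0.02 ± 0.40), Elf5 (-0.12 ± 0.29), Tfap2a (-0.28 ± 0.32) and Tfap2c (0.13 ± 0.28) overlapped between treated and untreated libraries. Pgr and Tfap2b had 0 counts in MamBo89 with and without the antibody.

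In MamBo38, edgeR called 0 genes (0%) of 11861, with 503 at an unadjusted p under 0.05, and DESeq2 called 5. Tfap2c had the largest log2 fold change of the 6 members fitted, at -1.16 ± 0.75 (adjusted p = 0.668), and the groups overlapped. The untreated libraries carry both codes in their names and the treated ones only that found in no other line. Within that code, Tfap2c was at 0.30 (adjusted p = 0.903, 2 treated against 1 untreated library), so its direction turned. Cited1 stood at -0.86 ± 0.73, Foxa1 at 0.28 ± 0.56, Tfap2a at -0.21 ± 0.12, Gata3 at -0.14 ± 0.13 and Esr1 at -0.05 ± 0.20. The trastuzumab effect differed between MamBo89 and MamBo38 for 0 of 13782 genes (302 at an unadjusted p under 0.05). The differences, MamBo89 minus MamBo38, were 2.39 ± 1.60 for Cited1, 1.27 ± 0.93 for Tfap2c and 0.52 ± 0.85 for Foxa1 (adjusted p = 1 each).

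**Figure D4:**
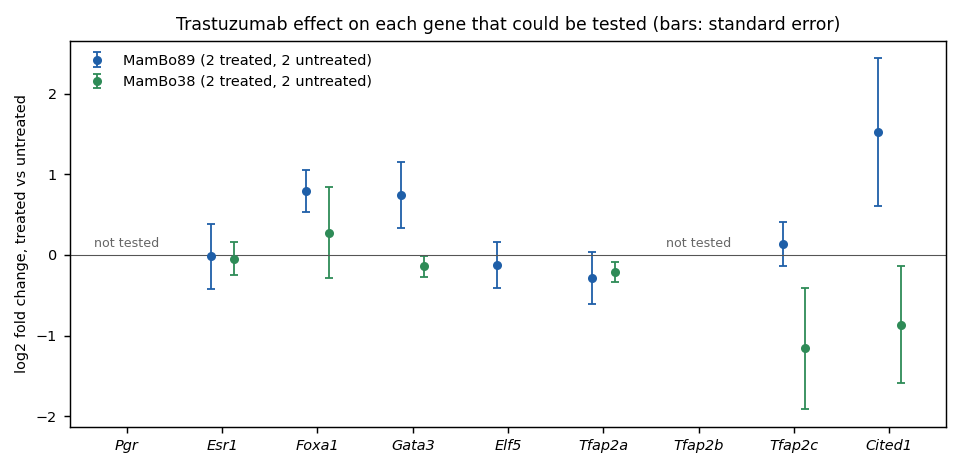
Log2 fold change of treated against untreated libraries for each member that could be fitted within MamBo89 (blue) and MamBo38 (green), with 2 libraries per arm, from edgeR. Bars are standard errors. Foxa1 (0.79), Gata3 (0.74) and Cited1 (1.52) lie above 0 in MamBo89 and none passed the test. Pgr and Tfap2b held too few counts to fit in both lines, and Elf5 too few in MamBo38.

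The genes around these members were then counted by group. With counts summed per line and HER2 status, 2 sums against 2, 0 genes of the 4 lists that follow were called by HER2 status, so these calls rest on libraries as replicates. Of 18 estrogen and progesterone response genes, 9 could be tested between HER2-negative and HER2-positive libraries, where 3 were higher and 5 lower. Over all 12364 genes, 15.8% were called higher and 17.0% lower. The median log2 fold change was -1.15 against -0.04 over all genes. Greb1, an estrogen receptor cofactor and a standard target gene, was called higher (edgeR adjusted p = 0.000253). It held 15.8 to 43.6 CPM in MamBo38, 2.74 and 1.3 CPM in MamBo43 TRT, 0.117 CPM in MamBo43 and at most 0.138 CPM in MamBo89. Igfbp4, a binding protein of insulin-like growth factors, rose by 7.02 ± 0.64 (adjusted p = 1.2e-05), from 9.17 to 1202 CPM in the group means. Prlr, the prolactin receptor, fell by 7.62 on the log2 scale (SE 1.01, adjusted p = 0.000117), with 0 counts in all MamBo38 libraries, 0.637 and 0.690 CPM in MamBo43 TRT and 28.8 to 64.3 CPM in HER2-positive libraries.

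Xbp1, a secretory factor, fell by 1.41 on the log2 scale (SE 0.31, adjusted p = 0.00267). Within tumor B, it stood at -0.61 (adjusted p = 0.138). The other called response genes were Car12, which was higher, and Stc2, Ccnd1 and Cxcl12, which were lower, all 4 with overlapping groups. None of them was called within tumor B, where the direction turned for Stc2 (0.49) and Cxcl12 (1.46). There, 2 response genes were higher and 1 was lower of 9 tested, against 12.5% and 12.4% of 13282 genes. Greb1 and Igfbp4 were also higher in MamBo43 TRT than in untreated MamBo43, and Prlr was lower, out of 11 tested (adjusted p = 0.0279, 0.00031 and 0.000191). Over all 13782 genes, that comparison called 13.6% higher and 15.5% lower. Esr1 and Pgr levels were lower in MamBo43 TRT, as described. In MamBo38 against MamBo43 TRT, Greb1 and Igfbp4 were higher and Prlr, Wnt4 and Areg lower of 11 tested, where 10.2% of all genes were called in each direction. Without the interrupted MamBo43 TRT library, Igfbp4 (0.96, edgeR adjusted p = 0.16), Wnt4 (-3.16, adjusted p = 0.135) and Areg (0.31, adjusted p = 0.846) were no longer called, and the Areg groups overlapped, with 126.5 CPM in that library and 10.4 in the other. The Wnt4 call was lost in 4 of 11 fits that left out 1 library.

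Of 15 other nuclear hormone receptors, 11 were tested between HER2-negative and HER2-positive libraries, and 1 was higher and 4 were lower, against 15.8% and 17.0% of all genes, with a median of -0.31. Rarg, a retinoic acid receptor, rose by 1.37 ± 0.26 (edgeR adjusted p = 0.0011). Vdr, the vitamin D receptor, fell by 5.01 on the log2 scale (SE 0.32, adjusted p = 1.61e-06), from 326 to 811 CPM in HER2-positive libraries to 9.99 to 28.4 CPM. Nr3c2, the mineralocorticoid receptor, fell by 4.68 (SE 0.64, adjusted p = 0.00014). Rara and Esrrg were also lower. Rara stood at -0.80 within tumor B, under the fold minimum. Esrrg rested on untreated MamBo43 with 16.6 CPM, since MamBo89 held 0.218 to 1.57 CPM and overlapped HER2-negative libraries (0.0767 to 1.49 CPM). In MamBo43 TRT against untreated MamBo43, Rarb and Rarg were higher and Esrrg, Nr3c2, Vdr and Rara lower of 12 tested, against 13.6% and 15.5% of all genes. Rarg was at 0.79 without the library kept in trastuzumab for 60 days and was no longer called.

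All 14 estrogen receptor coregulators were tested between HER2-negative and HER2-positive libraries. Of these, 1 was called lower and 0 higher, against 17.0% and 15.8% of 12364 genes, with a median of 0.07. Ncoa2, a coactivator, fell by 1.02 on the log2 scale (SE 0.13, edgeR adjusted p = 7e-05). It stood at -0.66 within tumor B, under the fold minimum, and 5 of the fits that left out 1 library put it between -0.958 and -0.998. For MamBo43 TRT against untreated MamBo43, for MamBo43 against MamBo89 and for MamBo38 against MamBo43 TRT, edgeR called 0 of 14. In that order, the shares of all genes called higher and lower were 13.6% and 15.5%, 11% and 7.86%, and 10.2% each.

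Other luminal transcription factors were mostly lower in HER2-negative libraries, 10 of 15 tested, with 1 higher and a median of -2.65. Over all 12364 genes, 17.0% were called lower and 15.8% higher, with a median of -0.04. For MamBo43 TRT against untreated MamBo43, these shares were 15.5% and 13.6% of 13782 genes. Hey1, a Notch target, fell by 5.34 on the log2 scale (SE 0.40, edgeR adjusted p = 4.2e-06), and Grhl2 fell by 4.52 (SE 1.46, adjusted p = 0.0227). Tbx3, a T-box repressor of the mammary bud, rose by 2.15 ± 0.49 (adjusted p = 0.00349). Grhl2 stood at -4.22 within tumor B with an adjusted p of 0.246, and 6 of 16 factors were called lower there, against 12.4% of all genes. In MamBo43 TRT against untreated MamBo43, 10 of 16 were lower (7 without the 60-day library) and 1 was higher, with a median of -1.49. Hey1 and Ehf, an ETS factor related to Elf5, were the most reduced, at -5.60 ± 0.75 and -4.44 ± 0.60 (adjusted p = 0.000607 and 0.00065). Between MamBo43 and MamBo89, Ehf was higher by 2.57 ± 0.48 (adjusted p = 0.00421) and Tbx3 lower, at -2.12 ± 0.58 (adjusted p = 0.0272) in MamBo43, and the other 14 were not called. Against untreated MamBo89 only, Tbx3 was not called (adjusted p = 0.497).

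**Figure D5:**
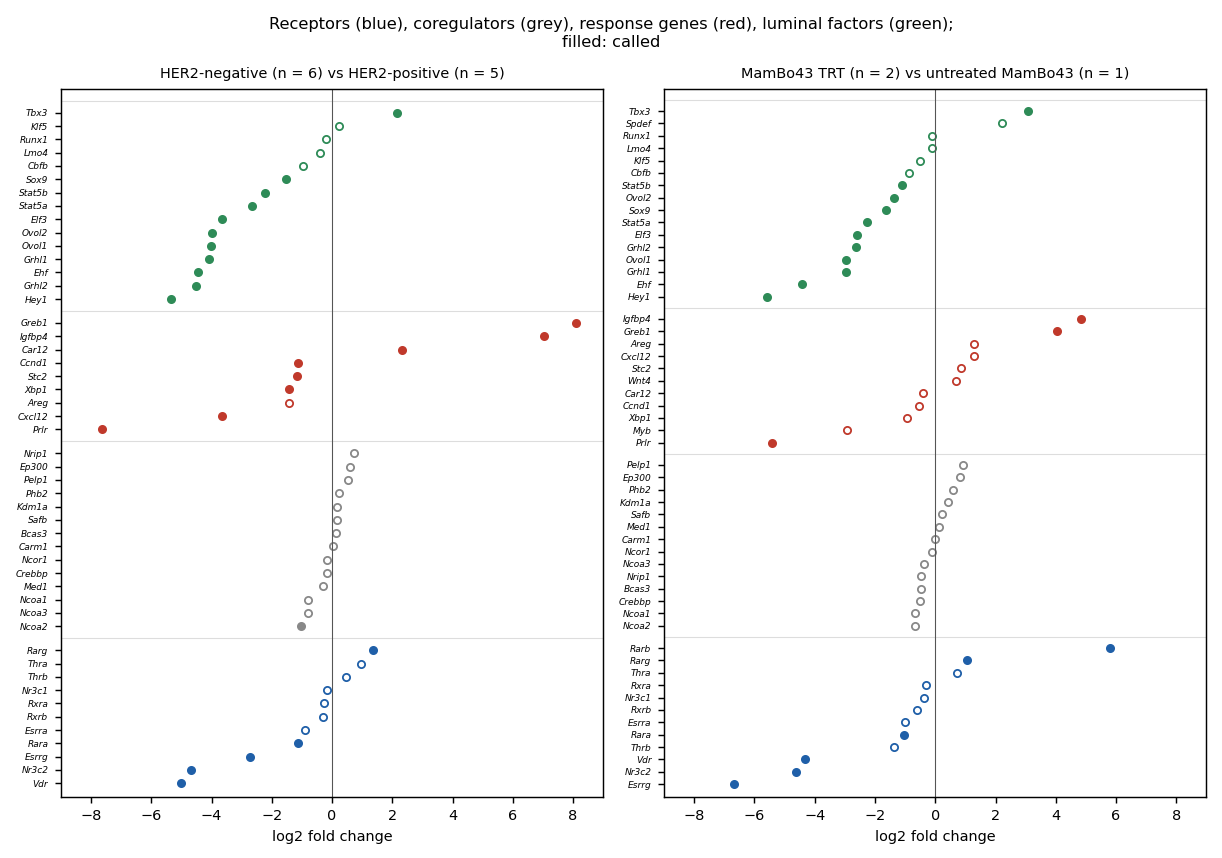
Log2 fold change of each tested receptor, coregulator, response gene and luminal factor between HER2-negative and HER2-positive libraries (left) and between MamBo43 TRT and untreated MamBo43 (right), from edgeR, without the 9 members. Filled points were called, and of the 14 coregulators 1 is filled on the left and 0 on the right. The values of Greb1 and Rarb rest on at most 3 counts per library in their lower group and depend on the prior count.

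The genes whose levels ran most like those of each member over the 11 libraries were taken by Pearson's r of log2(CPM + 0.5), as a description without a test. For Pgr these were Nfasc (r = 0.996), Flywch2 (0.995) and Brinp2 (0.992), with Spearman's rho of 0.68, 0.65 and 0.73. For Tfap2b they were Gdf10 (0.996), C130074G19Rik (0.995) and A530032D15Rik (0.994). For Esr1 they were Ak3 (0.99), Gja1, which encodes connexin 43 (0.98), and Sorbs3 (0.97), with rho of at least 0.95. Tfap2c ran with Dact2 (0.997), Bambi (0.993) and Ivns1abp (0.992), Elf5 with Pcsk5 (0.997), Trim14 (0.996) and Rbbp8nl (0.995), and Foxa1 with Taz, Mfsd13a and Camkk2 (0.99 each). Cited1 ran with Myrf, Satb1 and Bpifb5 (0.99 each). Tfap2a ran with the DNA repair genes Brca1 (0.96) and Rad18 (0.95) and with Prdm10 (0.95), and Gata3 with Bsdc1 (0.96), Ccdc28b (0.95) and Itm2b (0.95). The 11 libraries share lines and depth, so these are not 11 independent points.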

How the data were processed

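RNA of 11 samples was sequenced from TruSeq libraries in single-end mode with 75 nucleotides. Per the labels and the methods, the authors aligned reads with STAR 2.5 and counted them with RSEM 1.3.0 on mm10, and deposited expected counts, which had no fractions (0 fractional values among 21846 genes). The authors tested with DESeq2.

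The 9 members and the gene lists were chosen with earlier results of these data known. CPM used TMM-scaled library sizes of all 11 libraries. Genes were kept by filterByExpr (minimum count 10, minimum total 15) and tested with edgeR 4.0.16 in R 4.3.3 by glmQLFit and glmQLFTest with Benjamini-Hochberg adjustment, checked on simulated counts. HER2 status was compared in a 2-group fit, the lines in a fit of 4 groups, and trastuzumab within a line on its 4 libraries. The fits of 4 groups assume that the single untreated MamBo43 library varies like the others. Errors of log2 fold changes are the absolute change over the square root of F. Counting intervals are exact (95%) and, like the floor of 3 counts, cover counting error only. The labels do not say that libraries of a group came from separate cultures, so p-values measure the spread between these libraries. Folds against groups at 0 use the floor. Named non-members were, per list and comparison, up to 2 called genes in each direction with the largest change and no overlap between groups, and others with counts of 5 or fewer. The 3 genes most like each member were also named.

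Total counts were 17040454 to 27127662 (median 20592201), and whether depth or the number of libraries limits the calls was not tested. Alternatives were RLE size factors, no filter, DESeq2 1.42.0, an adjusted p under 0.05, leaving out each library and subsets by tumor, treatment or name code. Promoters came from RefSeq (GRCm38.p6) and gene positions and exon lengths from GENCODE M21. The files of other assays were not used here. Of the gene lists, 2 genes are not reported here.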

Additional observations from a re-analysis of the deposited data

Results flagged for a closer look

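Each gene was checked in each group of 4 to 6 libraries for a library that stood apart from the rest by Dixon's test. Chance passes it in about 1 in 20 groups, but the members were chosen on these same levels. That rate thus does not hold here, and the results are a description. Among the 5 HER2-positive libraries, untreated MamBo43 stood apart for Pgr (27.3 CPM against 0 in the other 4), for Tfap2b (45.3 CPM against 0) and for Esr1 (32.9 CPM against 6.96 to 9.26). That library is also the only one of tumor B in the group. Among the 6 HER2-negative libraries, MamBo43 TRT after 60 days stood apart for Elf5, with 0.575 CPM against 0 to 0.147 CPM in the others.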

How the results depend on the processing

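Libraries were not paired, because the labels carry no replicate numbers. With the code in the library names as a covariate, 3760 genes were called by HER2 status. HER2-negative against HER2-positive called 4052 genes, and 4 when counts were summed per line and HER2 status, 2 sums against 2. MamBo43 against MamBo89 called 2604 genes, and 952 against untreated MamBo89 only. Trastuzumab in MamBo89 called 9 genes by DESeq2, and in MamBo38 it called 5 by DESeq2 and 8 within the code that only MamBo38 libraries carry. All other settings kept the counts within 1.5 times. Leaving out 1 library gave 3795 to 4607 calls by HER2 status, 2870 to 4553 for MamBo43 TRT against MamBo43, 2300 to 3369 for MamBo43 against MamBo89 and 1971 to 3111 for MamBo38 against MamBo43 TRT. It gave 0 to 2296 in MamBo89, the highest without the parental library and 5 without AG3, and 0 to 1057 in MamBo38, the highest without the untreated library of that code. Without parental MamBo89, the log2 fold changes of Cited1 (3.99) and Gata3 (1.41) passed the threshold, as did that of Tfap2c (-1.81) without that untreated library.

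Directions turned for Cited1 within tumor B (6.63, against -6.88) and, within that code in MamBo38, for Esr1 (0.16), Foxa1 (-0.27) and Tfap2c (0.30). The response genes Stc2 and Cxcl12 also turned within tumor B. With 1 library left out, the trastuzumab effect in MamBo89 ranged from -0.23 to 0.17 for Esr1, -0.42 to 0.12 for Elf5, -0.60 to 0.13 for Tfap2a and -0.13 to 0.36 for Tfap2c. The trastuzumab effect in MamBo38 ranged from -0.23 to 0.16 for Esr1, -0.27 to 1.13 for Foxa1 and -1.81 to 0.30 for Tfap2c. In the comparisons between groups, members that were not called also turned. By HER2 status within tumor B, Esr1 was at -0.66 (against 0.70) and Gata3 at -0.17 (against 0.23), and Tfap2a ranged from -0.03 to 0.25 with 1 library left out. In MamBo38 against MamBo43 TRT, Foxa1 ranged from -1.10 to 1.03 and Cited1 from -0.48 to 0.27. The causes were not tested. RLE size factors moved the members' levels by at most 1.72%. The single untreated MamBo43 library could not be left out of its own comparisons.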

Other observations

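Relatives of the members also differed between lines. With counts summed per line and HER2 status, the calls by HER2 status given here were lost (edgeR adjusted p = 0.108 for Gata2, 0.134 for Cited2, 0.279 for Cited4 and 0.499 for Gata6). Cited4, a paralog of Cited1, was 199 to 326 CPM in MamBo89, 227 CPM in MamBo43, 16.9 and 7.63 CPM in MamBo43 TRT and at most 0.111 CPM in MamBo38, and fell by 5.90 on the log2 scale in HER2-negative libraries (SE 1.41, edgeR adjusted p = 0.00473). MamBo43, which held 0 Cited1 counts, was thus within the MamBo89 range of Cited4. Cited2 rose by 2.16 ± 0.25 (adjusted p = 4.34e-05). Gata2 rose by 5.66 ± 0.40 (adjusted p = 2.81e-06), from at most 0.816 CPM in HER2-positive libraries to between 16.0 and 28.6 CPM in HER2-negative ones. Gata6 fell by 4.03 (SE 1.31, adjusted p = 0.023), with 0 counts in MamBo38, but stood at -2.45 within tumor B (adjusted p = 0.476). Gata4 was 14.1 to 33.4 CPM in MamBo89 and at most 1.11 CPM elsewhere, and was lower in MamBo43 than in MamBo89 (-7.28 ± 0.80, adjusted p = 0.000174). Elf4, an ETS factor, was also lower in MamBo43 than in MamBo89 (-3.18 ± 0.46, adjusted p = 0.000936) and rose in MamBo43 TRT (3.19 ± 0.47, adjusted p = 0.00103).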
